A study of Mus musculus with 10 samples.

Results

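The genes described here encode components of the classical and lectin pathways of complement: the C1q chains (C1qa, C1qb and C1qc), the C1 proteases (C1ra, C1s1 and C1s2), the lectin pathway protease Masp1, the convertase protease C2, the convertase substrate C4b and the inhibitor Serping1. Members were found through the RefSeq accession of each array probe, and these 10 genes, represented by 12 probes, were taken from 22911 genes with a symbol and 56605 probes. RNA was measured in 3 regions of the mouse heart, the right ventricle (RV, 4 arrays), the left ventricle (LV, 3 arrays) and the ventricular septum (Septum, 3 arrays), on single-colour Agilent arrays. All mice were of the strain C57BL/6N, and the labels give no operation, transgene, drug, age or sex for them. Hearts were flushed with cold PBS, frozen and powdered before RNA extraction, so that each array holds RNA of whole regional tissue.

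The classical pathway starts when C1q, a protein built of A, B and C chains, binds antibody, apoptotic cells or microbial surfaces and its attached proteases C1r and C1s become active. C1s cuts C4 and C2, whose fragments form the C3 convertase, while the lectin pathway reaches the same convertase through mannose-binding lectin, ficolins or collectins and the MASP proteases. C1 inhibitor, the product of Serping1, blocks C1r, C1s and the MASPs. In most tissues C1q is made mainly by macrophages, C1r, C1s, C4 and C1 inhibitor are also made by fibroblast-like cells, and the liver supplies most of the other soluble components in plasma.

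The unscaled 75th percentile of the signal lay between 712 and 988 on the 10 arrays, and 53.7% to 64.0% of the probes that are not controls were well above background on an array. No spot was saturated. The arrays lay on 2 slides. Replicates 1 and 2 of each region were on slide 1, and the other 4 arrays (2 of the RV, 1 of the LV and 1 of the Septum, with replicate numbers 3 and 4) were on slide 2. Each slide was scanned apart from the other, so that slide and scan cannot be told apart. A term for the slide passed the test for 13237 of 30240 probes, and results are therefore also given within each slide. Slide 2 held 1 LV and 1 Septum array, so that only differences, and no test, are given for it. All 6 cardiomyocyte markers were well above background on the 10 arrays. The log2 of their summed signal was 11.1 to 11.3 in the RV, 11.2 to 11.4 in the LV and 11.1 to 11.4 in the Septum. Both comparisons of the RV used the same 4 RV arrays. In these bulk samples, fewer cells of a type and less RNA per cell cannot be told apart.

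Levels are given as log2 signal relative to the 75th percentile of the array, so that 0 is the signal of the 75th percentile. Levels of different probes depend on the probe and are not compared with each other. Each difference is a difference of region means on that log2 scale, from limma fitted to all 10 arrays, and a gene is called where the p-value adjusted over all tested probes lay below 0.05. The brightest probe of each of the 10 genes was well above background on all 10 arrays, and all 10 were tested.

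RNA for the C1 proteases C1ra and C1s2 was higher in the RV than in both other regions, C4b was higher in the RV than in the LV, and C2 was higher in the RV than in the Septum. No member passed the test as lower in the RV. C1ra was 1.58-fold higher in the RV than in the LV and 1.55-fold higher than in the Septum. The C1s2 calls were less stable. When 1 array was left out they were kept in 3 of 10 fits against the LV and in 1 of 10 against the Septum. C1s1, the other C1s copy, had almost the same differences (0.44 and 0.46) and was not called. C4b, the source of the larger convertase fragment, was 2.49-fold higher in the RV than in the LV. C2, the convertase protease, was 6.80-fold higher in the RV than in the Septum. The C1q chains had differences of 0.23 to 0.31 on the log2 scale in both comparisons and were not called.

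In the RV against the LV, 3 of the 10 members were called, all higher (C1ra, C1s2 and C4b). Among all genes tested, 4.97% were called in this comparison, 3.13% as higher and 1.84% as lower in the RV. In the RV against the Septum, 3 of 10 were called, again all higher (C1ra, C1s2 and C2), where 2.7% of all genes were called, 1.68% as higher and 1.02% as lower. The split over all genes depended on the scaling: against the LV it was 459 higher and 269 lower, and 553 and 165 when arrays were scaled on probes above background on all of them, and against the Septum it was 246 and 149, and 224 and 73 with median scaling. The median member difference was 0.45 in each RV comparison, while the median over all genes tested was -0.05 against the LV and -0.04 against the Septum. For 6 of 10 members (C1ra, C1s1, C1s2, C2, C4b and Serping1) every RV array lay above every LV array and every Septum array. Of all genes tested, 9.16% lay wholly higher in the RV than in the LV and 6.94% wholly higher than in the Septum, while 13.4% and 9.05% lay wholly lower. Between the Septum and the LV the arrays of every member overlapped, and 3.63% of all genes lay wholly higher and 3.77% wholly lower in the Septum.

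**Figure D1:**
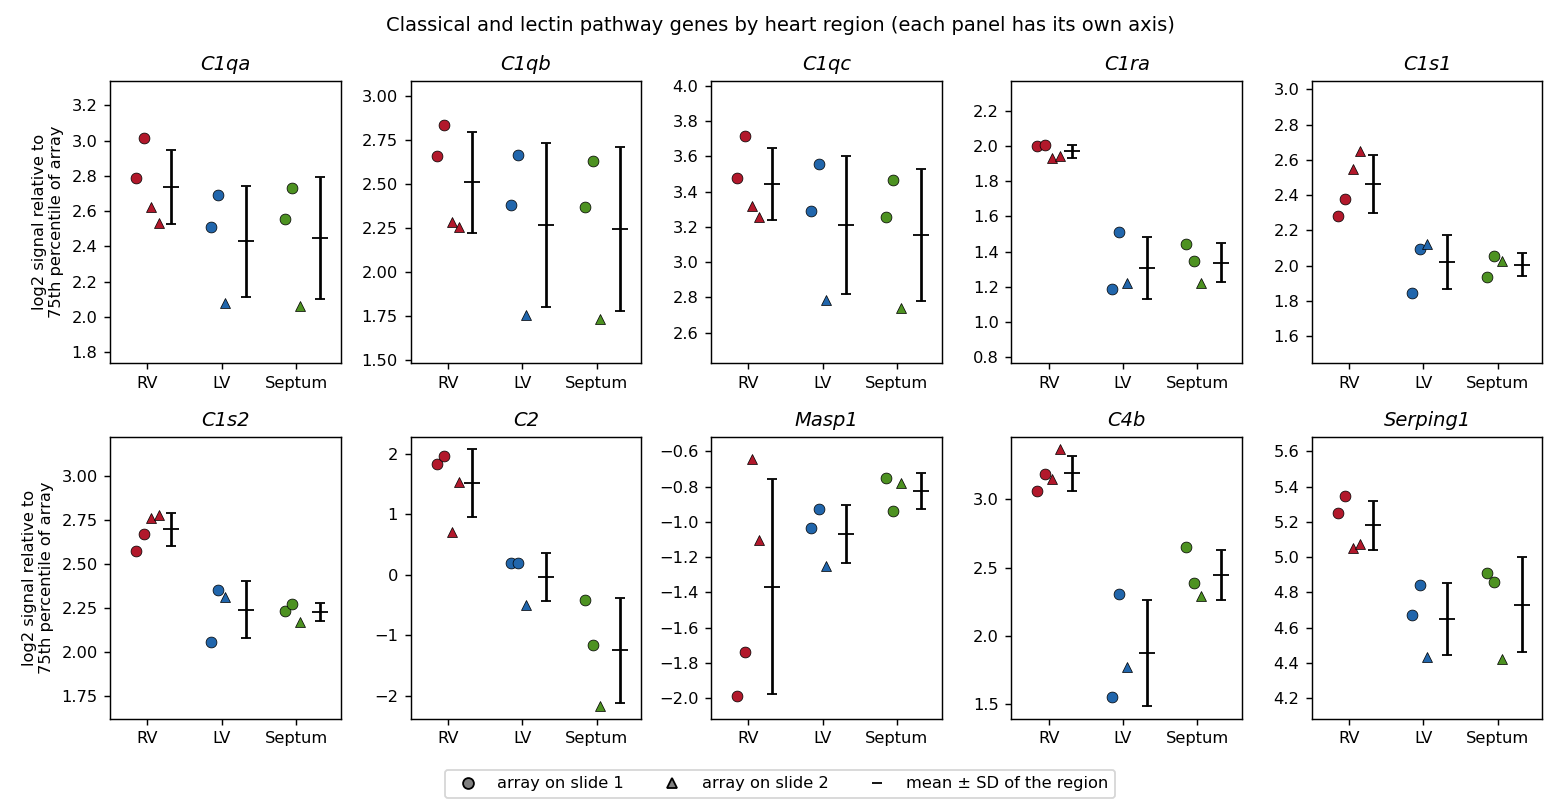
Level of each of the 10 genes on each array, as log2 signal relative to the 75th percentile of the array, by region (RV, LV, Septum), with circles for slide 1, triangles for slide 2 and black bars for the mean ± SD of each region. The RV arrays stand wholly above both other regions for C1ra, C1s1, C1s2, C2, C4b and Serping1, while the 3 C1q chains separate by slide more than by region.

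The recognition molecule C1q was represented by its A, B and C chains. C1qa lay at 2.79, 3.01, 2.62 and 2.54 on RV replicates 1 to 4, at 2.51, 2.69 and 2.08 on LV replicates 1 to 3, and at 2.56, 2.73 and 2.06 on Septum replicates 1 to 3. The regions overlapped, and within each region the arrays of slide 2 were the lowest. The RV minus LV difference of C1qa was 0.31 (SE 0.20, 95% interval -0.13 to 0.75, adjusted p = 0.434), and the RV minus Septum difference was 0.29 (95% interval -0.15 to 0.73, adjusted p = 0.582).

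C1qb lay between 2.26 and 2.84 in the RV, between 1.76 and 2.67 in the LV and between 1.73 and 2.63 in the Septum. C1qc lay between 3.26 and 3.71, between 2.79 and 3.56, and between 2.74 and 3.47 in the same order. The differences of both chains had 95% intervals that included 0 and reached from -0.36 to 0.86, so that differences of that size were not excluded by these arrays. The C1q chains differed strongly between the slides: slide 2 minus slide 1 was -0.45 for C1qa (adjusted p = 0.003), -0.64 for C1qb (adjusted p = 0.001) and -0.49 for C1qc (adjusted p = 0.004).

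Within a slide the C1q differences kept 1 direction. On slide 1 the RV minus LV differences were 0.30 for C1qa, 0.22 for C1qb and 0.17 for C1qc, and on slide 2 they were 0.50, 0.51 and 0.50. With the slide as a block, C1qa was called in the RV against the LV (0.39, adjusted p = 0.024) and against the Septum (0.36, adjusted p = 0.045), while C1qb and C1qc were not. With the replicate number as a block, C1qa was called in both comparisons (0.38 and 0.36, adjusted p = 0.028 and 0.047) and C1qb in the RV against the LV (0.33, adjusted p = 0.049). Leaving out the LV or the Septum array of slide 2 lowered the C1q differences, but the RV then still held arrays of slide 2. The slide difference of the C1q chains entered these fits, which cannot show that the differences rested on those arrays. Without LV replicate 3, the RV minus LV differences were 0.14 for C1qa, -0.01 for C1qb and 0.02 for C1qc (adjusted p at least 0.73). Without Septum replicate 3, the RV minus Septum differences were 0.10, 0.01 and 0.08 in the same order (adjusted p at least 0.84).

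Promoter sequences are shown to compare genes whose RNA moved together across the arrays, the C1q chains here and the C1 proteases further on. RefSeq windows of 250 bases before the annotated start, on GRCm38.p6, were at hand for 5 of the 10 members. Those of C1qb (chr4:136886201-136886450, minus strand) and C1qc (chr4:136892915-136893164, minus strand) are printed 5′ to 3′, with capitals marking the core GAGGAA of PU.1, a factor of macrophages and other myeloid cells, on either strand.
C1qb: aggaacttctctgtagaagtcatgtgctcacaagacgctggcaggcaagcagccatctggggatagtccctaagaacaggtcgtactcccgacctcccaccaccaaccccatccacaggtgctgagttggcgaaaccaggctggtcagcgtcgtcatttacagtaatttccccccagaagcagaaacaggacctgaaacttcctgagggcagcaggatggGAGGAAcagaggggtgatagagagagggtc
C1qc: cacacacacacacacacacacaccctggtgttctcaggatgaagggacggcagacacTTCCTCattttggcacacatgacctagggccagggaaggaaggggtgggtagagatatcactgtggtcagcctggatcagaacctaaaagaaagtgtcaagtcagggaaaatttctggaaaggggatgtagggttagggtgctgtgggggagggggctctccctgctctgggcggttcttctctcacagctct
The match lay 30 to 25 bases before the start in C1qb, on the strand of the gene, and 193 to 188 bases before it in C1qc, on the opposite strand. The same core was found in 23.36% of all 32536 promoter windows of this length, searched on both strands, so that a match in a window is common. The C1qb and C1qc windows were identical over 43.5% of aligned positions.

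The C1 proteases were the members with the most even levels within a region. C1ra, a mouse gene for C1r, the protease that cuts and activates C1s, lay at 2.0, 2.0, 1.93 and 1.94 on RV replicates 1 to 4, at 1.19, 1.51 and 1.22 on the LV replicates, and at 1.44, 1.35 and 1.22 on the Septum replicates. The RV arrays lay close to each other and clear of both other regions, which overlapped. The RV minus LV difference was 0.66 (SE 0.10, adjusted p = 0.007) and the RV minus Septum difference was 0.63 (adjusted p = 0.014).

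The call of C1ra against the LV was made in all 10 fits that left out 1 array, with differences of 0.60 to 0.77. Against the Septum the call was lost without Septum replicate 2 (0.64, adjusted p = 0.069) and without Septum replicate 3 (0.57, adjusted p = 0.063), as well as with no filter on dim probes (adjusted p = 0.087). Within slides the C1ra difference was 0.65 and 0.72 against the LV and 0.61 and 0.72 against the Septum, on slides 1 and 2 in that order. Neither of the slide 1 values passed the test on the arrays of that slide alone (adjusted p at least 0.062).

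C1s1 and C1s2 encode copies of C1s, the protease that cuts C4 and C2. C1s2 lay at 2.58, 2.67, 2.76 and 2.78 in the RV, at 2.06, 2.35 and 2.31 in the LV, and at 2.23, 2.27 and 2.17 in the Septum. C1s1 lay at 2.28, 2.38, 2.55 and 2.65 in the RV, at 1.85, 2.10 and 2.13 in the LV, and at 1.93, 2.06 and 2.03 in the Septum. For both genes every RV array lay above every array of the other regions, and no RV array lay far from the rest. The files hold no probe sequences, so that signal from the near copy, for these genes as for C1ra and C1rb and for C4b and C4a, could not be checked and the gene behind each signal is uncertain.

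C1s2 was called in both RV comparisons, with an RV minus LV difference of 0.46 (SE 0.09, adjusted p = 0.030) and an RV minus Septum difference of 0.47 (adjusted p = 0.037). C1s1 had almost the same differences, 0.44 and 0.46, with adjusted p = 0.057 and 0.074, and was not called. The calls of C1s2 were easily lost. Against the LV the difference was 0.36 without LV replicate 1 (adjusted p = 0.101), 0.51 without LV replicate 2 (adjusted p = 0.062) and 0.49 without LV replicate 3 (adjusted p = 0.066). It was 0.46, 0.43 and 0.43 without RV replicates 2, 3 and 4 (adjusted p = 0.064, 0.059 and 0.083) and 0.46 without Septum replicate 2 (adjusted p = 0.051). Against the Septum the call was kept in 1 of 10 such fits, that without LV replicate 1, and the differences of all 10 lay between 0.44 and 0.51 (adjusted p at most 0.132). Both calls were also lost with median scaling (0.43 and 0.51, adjusted p = 0.108 and 0.085) and with no filter on dim probes (adjusted p = 0.145 and 0.172).

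Both C1s genes had positive differences on each slide. C1s1 was 0.36 and 0.47 higher in the RV than in the LV on slides 1 and 2, and C1s2 0.42 and 0.46. With the slide as a block C1s1 was called in both RV comparisons (0.41 and 0.43, adjusted p = 0.013 and 0.017), as it was in the fit blocked by replicate number (0.38 and 0.40, adjusted p = 0.018 and 0.023). It was also called with quantile normalization (0.49 in each, adjusted p = 0.033 and 0.042).

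The 3 protease genes had windows at chr6:124512371-124512620 (C1ra, plus strand), chr6:124542360-124542609 (C1s1, minus strand) and chr6:124636086-124636335 (C1s2, minus strand). They are printed 5′ to 3′ as for C1q, and capitals mark a match to the C/EBP motif TTGCNNAA, which was searched on both strands.
C1ra: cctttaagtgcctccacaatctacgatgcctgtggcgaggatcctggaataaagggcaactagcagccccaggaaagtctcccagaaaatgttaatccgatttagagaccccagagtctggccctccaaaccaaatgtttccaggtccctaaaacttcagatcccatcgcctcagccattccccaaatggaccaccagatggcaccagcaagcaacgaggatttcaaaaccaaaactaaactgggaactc
C1s1: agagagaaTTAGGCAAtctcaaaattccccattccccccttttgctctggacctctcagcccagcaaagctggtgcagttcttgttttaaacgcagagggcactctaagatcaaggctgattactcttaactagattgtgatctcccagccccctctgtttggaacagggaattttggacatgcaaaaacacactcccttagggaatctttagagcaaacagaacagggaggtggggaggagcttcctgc
C1s2: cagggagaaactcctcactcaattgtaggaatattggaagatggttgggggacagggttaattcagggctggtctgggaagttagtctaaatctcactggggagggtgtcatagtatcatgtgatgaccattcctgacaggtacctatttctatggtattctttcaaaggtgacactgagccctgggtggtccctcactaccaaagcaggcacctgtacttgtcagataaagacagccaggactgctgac
Of these windows only that of C1s1 held a C/EBP match, on the strand opposite to the gene and 242 to 235 bases before the start, and 9.57% of all windows held one. A second annotated start of C1s1, whose window is at chr6:124542322-124542571, had no match to it. C1s1 and C1s2, whose levels ran nearly together, had windows identical over 46.2% of aligned positions, within the range of 41.9% to 47.6% over all pairs of the 5 genes. Neither the interferon-stimulated response element, searched as its common core on both strands and held by 2.98% of all windows, nor the gamma-activated sequence TTCNNNGAA, held by 7.04%, was found in any of the 6 member windows. The PU.1 core was not found in the windows of C1ra, C1s1 or C1s2.

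C4b encodes complement C4, whose larger fragment binds covalently to the surface and anchors the convertase. It lay at 3.06, 3.18, 3.15 and 3.37 on RV replicates 1 to 4, at 1.55, 2.31 and 1.77 on the LV replicates, and at 2.65, 2.39 and 2.30 on the Septum replicates. The RV was clear of both other regions, LV replicates 1 and 3 were the lowest, and LV replicate 2 reached the range of the Septum. The RV minus LV difference was 1.31 (SE 0.17, adjusted p = 0.005) and was called in all 10 fits that left out 1 array, at 1.15 to 1.53. The RV minus Septum difference was 0.75 (SE 0.17, 1.68-fold, adjusted p = 0.066). It was called without LV replicate 2 (0.75, adjusted p = 0.027), with the slide as a block (0.75, adjusted p = 0.035) but not in the fit blocked by replicate number (0.69, adjusted p = 0.076).

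Within slides, C4b was higher in the RV than in the LV by 1.19 on slide 1 (adjusted p = 0.078) and by 1.49 on slide 2. It was higher than in the Septum by 0.60 and 0.96. A second C4b probe ran the same way, with an RV minus LV difference of 1.19 (adjusted p = 0.009) and an RV minus Septum difference of 0.67 (adjusted p = 0.112).

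C2 encodes the serine protease of the convertase and had the widest range of the members. It lay at 1.83, 1.97, 0.71 and 1.54 on RV replicates 1 to 4, at 0.20, 0.20 and -0.50 on the LV replicates, and at -0.42, -1.16 and -2.17 on the Septum replicates. Every RV array lay above every other array, RV replicate 3 was the lowest of the RV, and Septum replicate 3 was the lowest of all. The RV minus Septum difference was 2.76 (SE 0.42, adjusted p = 0.015). The RV minus LV difference was 1.55 (SE 0.42, 2.92-fold, adjusted p = 0.076) and was not called, although its 95% interval of 0.60 to 2.49, which is not adjusted for the number of probes, excluded 0.

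The C2 call against the Septum was lost without Septum replicate 2 (2.81, adjusted p = 0.068) and with no filter on dim probes (adjusted p = 0.063). It was also lost by the study's analysis of variance once the p-value over the 3 regions was adjusted over probes. There the larger of that value and Tukey's p, which was not adjusted over probes, was 0.062. The differences of the fits that left out 1 array lay between 2.31 and 3.18. Against the LV, C2 was called without Septum replicate 3 (1.55, adjusted p = 0.044). Within slides, C2 was higher in the RV than in the Septum by 2.69 on slide 1 (adjusted p = 0.015) and by 3.29 on slide 2. It was higher than in the LV by 1.70 (adjusted p = 0.041) and 1.62 on the same slides. With the slide as a block both C2 differences were called (1.70 against the LV, adjusted p = 0.004, and 2.92 against the Septum, adjusted p = 0.0005). They were also called in the fit blocked by replicate number (1.54 and 2.76, adjusted p = 0.012 and 0.004).

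Masp1, which encodes a protease of the lectin pathway and its splice forms, was the only member with negative differences in both RV comparisons. It lay at -1.99, -1.74, -0.65 and -1.10 on RV replicates 1 to 4, at -1.03, -0.93 and -1.25 on the LV replicates, and at -0.75, -0.94 and -0.78 on the Septum replicates. The RV arrays of slide 1 were the lowest of all 10, RV replicate 3 was the highest of all, and RV replicate 4 lay within the range of the LV. The difference was -0.30 against the LV (adjusted p = 0.617) and -0.54 against the Septum (adjusted p = 0.426). On slide 1 the RV minus LV difference was -0.88 (adjusted p = 0.039) and on slide 2 it was 0.37, so that the direction was not shared by the slides. The RV minus Septum difference was -1.02 (adjusted p = 0.030) and -0.10 on the same slides. These values come from a probe for a predicted RefSeq transcript. The other Masp1 probe, for a curated RefSeq transcript, was well above background on 0 of 10 arrays, so that the transcript behind the signal is uncertain.

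Serping1 encodes C1 inhibitor, the serpin that inactivates C1r, C1s and the MASP proteases. It lay at 5.25, 5.34, 5.05 and 5.07 on RV replicates 1 to 4, at 4.67, 4.84 and 4.44 on the LV replicates, and at 4.91, 4.86 and 4.42 on the Septum replicates. The RV did not overlap with either region, and in each region the arrays of slide 2 were the lowest (slide 2 minus slide 1, -0.32, adjusted p = 0.003). The RV minus LV difference was 0.53 (SE 0.14, 1.45-fold, adjusted p = 0.078), the RV minus Septum difference was 0.45 (adjusted p = 0.190), and neither was called.

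With the slide as a block Serping1 was called in both comparisons (0.59 and 0.50, adjusted p = 0.002 and 0.005), and likewise in the fit blocked by replicate number (0.57 and 0.48, adjusted p = 0.010 and 0.019). On slide 1 the RV minus LV difference was 0.54 (adjusted p = 0.049) and on slide 2 it was 0.63. Without Septum replicate 3 the difference against the LV was called too (0.53, adjusted p = 0.049).

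**Figure D2:**
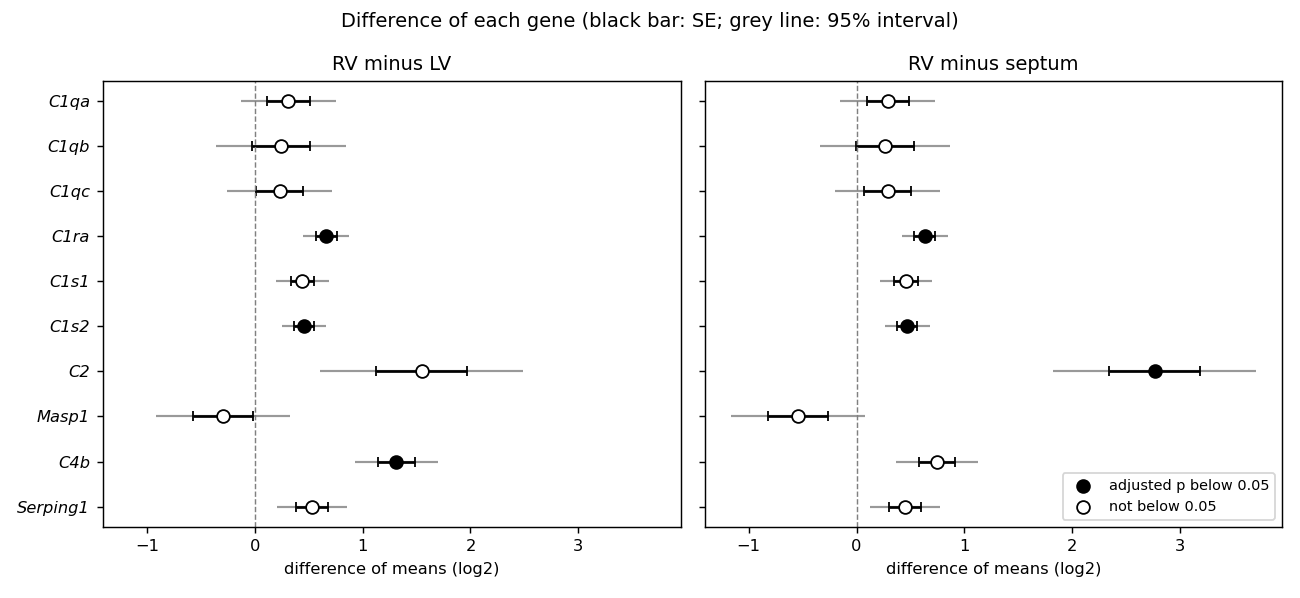
Difference of region means of each of the 10 genes on the log2 scale, RV minus LV on the left and RV minus Septum on the right, with black bars for the SE, grey lines for the 95% interval and filled points for an adjusted p below 0.05. The called differences are 0.66, 0.46 and 1.31 for C1ra, C1s2 and C4b on the left and 0.63, 0.47 and 2.76 for C1ra, C1s2 and C2 on the right, and Masp1 is the only gene left of 0.

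The number of members called rose where the fit had a term for the slide or the replicate number, and so did the number over all genes. With the slide as a block, 7 members were called as higher in the RV than in the LV (C1qa, C1ra, C1s1, C1s2, C2, C4b and Serping1), where 21.3% of all genes were called, 8.78% as higher and 12.5% as lower. The same 7 were called against the Septum, where 11% of all genes were called, 5.34% as higher and 5.71% as lower. With the replicate number as a block, 8 members were called as higher in the RV than in the LV (17.9% of all genes, 7.25% as higher and 10.6% as lower). Against the Septum 6 were called (8.7% of all genes, 4.18% as higher and 4.52% as lower). With no adjustment over genes, the study's analysis of variance followed by Tukey's correction called 6 members in the RV against the LV (16.1% of all genes, 6.48% as higher and 9.65% as lower) and 5 against the Septum (11.3% of all genes, 4.78% as higher and 6.53% as lower). With the slide or the replicate number as a term, 0 members were called between the Septum and the LV, where 0.0751% (0.0683% as higher and 0.00683% as lower) and 0% of all genes were called, in that order.

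Between the Septum and the LV no member was called by limma, and 0% of all genes tested were called. At an unadjusted limma p below 0.05, 2 of the 10 members and 2.9% of all genes differed. The study's own kind of test, a one-way analysis of variance followed by Tukey's correction, called 0 members before and after adjustment over probes. Before it, 1.55% of all genes were called, 0.992% as higher and 0.554% as lower in the Septum. After it, 0.643% of all genes were called, 55 genes as higher and 39 as lower. C2 was the member with the largest Septum minus LV difference, -1.22 (95% interval -2.22 to -0.21, unadjusted p = 0.023), and C4b had a difference of 0.57 (95% interval 0.16 to 0.98, unadjusted p = 0.012). These 2 genes thus had opposite signs in this comparison. The other differences lay between -0.06 and 0.25, and the median member difference was 0.003.

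The members also differed in how much they varied among arrays of a region. C2, Masp1 and C1qb had residual SDs at percentiles 97.7, 91.7 and 91.1 of all genes tested, and C1ra and C1s2 at percentiles 30.6 and 27.9. C1ra and C1s2 were called at differences of 0.46 to 0.66, while the RV minus LV difference of C2, at 1.55, was not called.

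When each gene was centred on its own mean over the 10 arrays, the chains of C1q and the C1s copies formed the closest profiles among the members. The root mean square distance over the 10 arrays, on the log2 scale, was 0.05 between C1qa and C1qc, 0.08 between C1qb and C1qc, 0.10 between C1qa and C1qb, and 0.06 between C1s1 and C1s2. C1ra lay 0.14 from C1s2 and 0.14 from Serping1. C2 lay at least 1.0 from every other member. These distances describe the same 10 arrays and carry no test.

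Across 13633 genes well above background on all arrays, the 3 profiles closest to C1qa were those of Fcgr3 (an Fc receptor of myeloid cells, distance 0.05), C1qc and Cd68 (a lysosomal protein of macrophages, 0.06). Those closest to C1s1 were Stab1 (a scavenger receptor, 0.05), C1s2 and Man2a1 (a mannosidase of the Golgi, 0.07). Those closest to C2 were Rspo1 (a secreted enhancer of Wnt signalling, 0.19), Cyp2s1 (a cytochrome P450, 0.26) and AI661453 (0.29). Those closest to Serping1 were Crip1 (a LIM domain protein, 0.08), Cyp4v3 (a cytochrome P450, 0.08) and Tm4sf1 (a tetraspan membrane protein, 0.08).

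**Figure D3:**
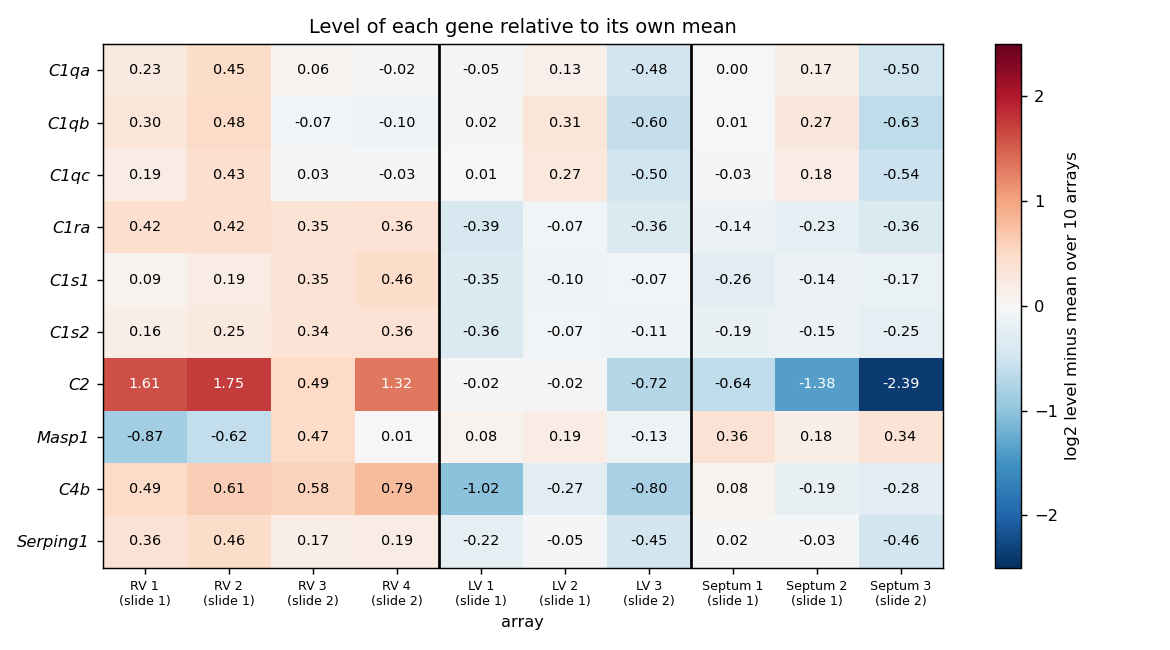
Level of each of the 10 genes on each of the 10 arrays minus the mean of that gene over the arrays, on the log2 scale, with arrays grouped by region and red above and blue below the mean. C2 runs from 1.75 on RV replicate 2 to -2.39 on Septum replicate 3, C1ra is above its mean on the 4 RV arrays and below it on the 6 others, and the C1q chains are lowest on LV replicate 3 and Septum replicate 3.

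The rest of the pathway was described from lists of other components. Of 10 genes for lectin pathway recognition, further proteases and C4a, 6 were tested and 0 were called by limma in either RV comparison (3 at an unadjusted p below 0.05 in each, where 22.8% of all genes passed that threshold against the LV and 16.3% against the Septum). Fcna, a ficolin of macrophages, had differences of 0.62 against the LV and 0.73 against the Septum (adjusted p = 0.185 and 0.197). C4a, the near copy of C4b, had 1.06 and 0.35 (adjusted p = 0.087 and 0.684), and C1rl, a C1r-like protease, 0.27 and 0.18 (adjusted p = 0.059 and 0.250).

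The C1rb difference was 0.23 against the LV by its brightest probe and -0.35 by another probe, neither of them called. Colec11, a soluble collectin, and Masp2, the protease that cuts C4 in the lectin pathway, lay within 0.15 of 0 in both RV comparisons. The recognition genes Mbl1 and Mbl2 (mannose-binding lectins), Fcnb and Colec10 were well above background on at most 1 array and were not tested.

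Of 10 symbols for convertase partners and terminal components, 9 had a probe and 4 were tested. Of these, 0 were called against the LV and 1 against the Septum, where 4.97% and 2.7% of all genes were called. C3, the substrate of the convertase, was higher in the RV than in the Septum (1.34, adjusted p = 0.036) and had a difference of 0.89 against the LV (adjusted p = 0.096). Cfb, the protease of the alternative convertase, had differences of 1.22 and 1.39 (adjusted p = 0.125 and 0.133). C7 and C8g, of the terminal complex, lay within 0.20 of 0, and C6, C8a, C8b, C9 and Hc were not tested.

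Of 12 regulators of the convertase and receptors of C1q, 9 were tested and 0 were called by limma in either RV comparison. At an unadjusted p below 0.05 there were 4 against the LV and 0 against the Septum, where 22.8% and 16.3% of all genes passed. Lrp1, a receptor of many ligands including C1q, had differences of 0.60 and 0.32, and C1qbp, a binding protein for the C1q globular heads, -0.28 and -0.14. Cd55, Cd55b and Cr1l, which break up or inactivate convertases, had differences of -0.19 to 0.43, and Cd59a and Cd59b, which block the terminal complex, -0.01 to 0.20. Cd93 and Calr, both linked to C1q, lay between -0.06 and 0.11, and C4bp, Cd46 and Cfi were not tested.

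Markers of other cells moved beside some members. All 12 macrophage markers were well above background on all arrays, and all 12 had positive differences in both RV comparisons (medians 0.31 and 0.29). By limma 0 were called, and 4 in each comparison had an unadjusted p below 0.05. Of all genes, 22.8% passed that threshold against the LV and 16.3% against the Septum. The log2 of their summed signal was 5.66 to 5.76 in the RV, 5.20 to 5.47 in the LV and 5.01 to 5.52 in the Septum, so that the RV lay above the other regions by this measure. Csf1r, the brightest of them, weighs most in that sum. It lay at 4.63 to 4.82, 4.30 to 4.42 and 4.12 to 4.50 in the same order. The median differences are of the size of those of the C1q chains, and the part of macrophage content in the C1q values was not tested.

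All 9 fibroblast markers were tested and had positive differences in both RV comparisons (medians 0.56 and 0.35). Of these, 3 (Pdgfra, Dcn and Tcf21) were called against the LV and 1 (Tcf21) against the Septum, where 4.97% and 2.7% of all genes were called. Their summed signal was 8.50 to 8.73 in the RV, 7.88 to 8.18 in the LV and 8.18 to 8.43 in the Septum. Dcn alone lay at 8.15 to 8.22, 7.51 to 7.84 and 7.77 to 8.07 in the same order. It makes up most of that sum, which shows little of the other genes. The order RV, Septum, LV was also that of the means of C4b, C1qa, C1ra and Serping1. The means of C1s1, C1s2, C1qb, C1qc and C2 ran in the order RV, LV, Septum. No member was called between the Septum and the LV. The part of fibroblast content in the values of C4b, C1ra, C1s1, C1s2 and Serping1 was not tested.

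Mesothelial markers, which mark the covering layer of the heart, had the largest median difference of the marker lists in the RV against the Septum. Of 10, 9 were tested, and 1 (Krt18) was called against the LV and 8 against the Septum, all higher in the RV, with median differences of 1.81 and 3.61. In these comparisons 4.97% and 2.7% of all genes were called. Only 3 of these 9 were well above background on all 10 arrays, and differences of the other 6 rest in part on signals near background. Bnc1 and Lrrn4 passed the filter through the RV alone, and of the 3 genes measured on all arrays Krt18 was called against the LV, and Krt18 and Msln against the Septum. The summed signal of the 9 markers was 3.32 to 4.74 in the RV, 2.39 to 3.09 in the LV and 0.89 to 2.05 in the Septum. Msln weighs most in that sum in the RV and the LV, where it lay at 2.04 to 3.80 and 1.14 to 2.24. C2 followed nearly the order of the summed signal over the arrays. The 4 RV arrays were the highest by C2 and by the sum, RV replicate 3 was the lowest of these by both, and Septum replicates 2 and 3 were the lowest of all. The part of mesothelial content in the C2 values was not tested.

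**Figure D4:**
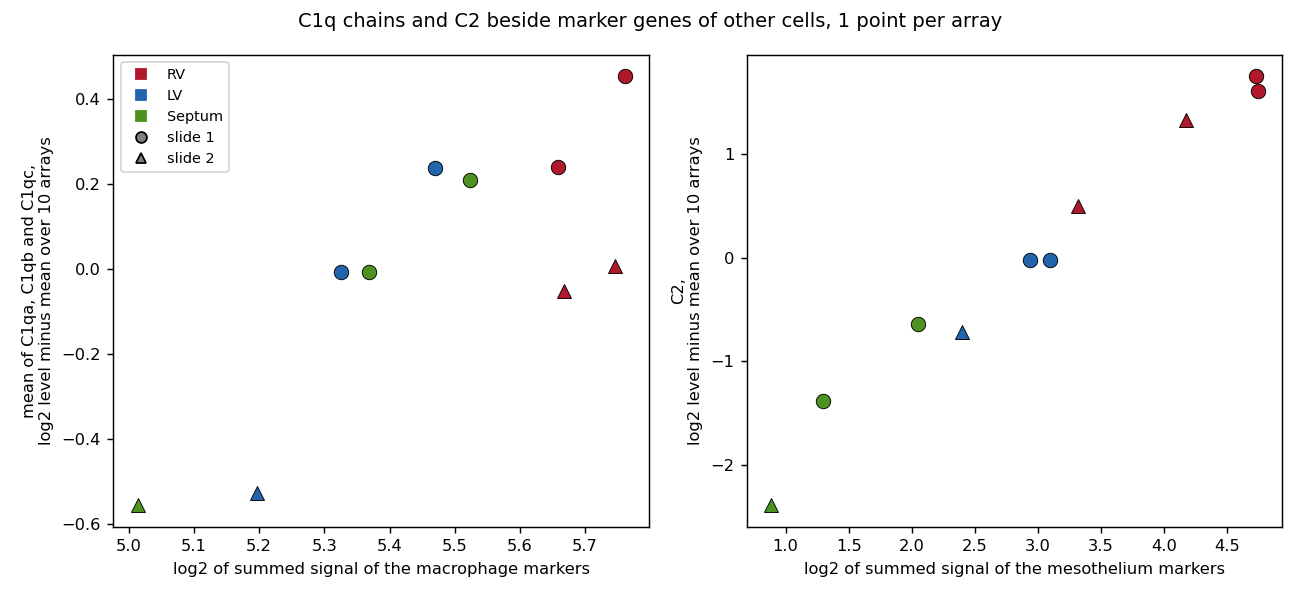
Mean of the centred levels of C1qa, C1qb and C1qc against the log2 of the summed signal of 12 macrophage markers (left), and centred level of C2 against that of 9 mesothelial markers (right), with 1 point for each of the 10 arrays, colours for region and shapes for slide. On the left the RV arrays of slide 2 lie below those of slide 1 at like marker signal, and on the right the arrays run from Septum replicate 3 at 0.89 to RV replicate 1 at 4.74 with C2 rising alongside.

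Adipocyte markers had the largest median difference of the marker lists in the RV against the LV. Of 7, all tested, Adipoq, Plin1, Cidec and Retn were called as higher in the RV than in the LV, and Plin1 and Cidec as higher than in the Septum, with medians over the 7 genes of 3.26 and 1.57. In these comparisons 4.97% and 2.7% of all genes were called. Plin1 passed the filter through the RV alone, and Adipoq and Plin1 were well above background on 0 LV arrays, so that their levels there are only bounds. Plin1 was well above background on 1 of 3 Septum arrays, so that its Septum level and its call there rest in part on signals near background. Cidec, a lipid droplet protein measured on all arrays, lay at 1.58 to 2.49 in the RV, -2.95 to -1.39 in the LV and -0.71 to 0.86 in the Septum. Retn, which encodes the secreted protein resistin and was also measured on all arrays, lay at 0.02 to 1.16, -3.38 to -2.39 and -2.11 to 0.03 in the same order.

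The means of these 4 adipocyte genes ran in the order RV, Septum, LV. The means of C4b, C1qa, C1ra and Serping1 had that order as well. Those of the other members did not, and no member was called between the Septum and the LV. Lep, Pparg and Fabp4, the rest of the list, had differences of -0.24 to -0.07 and were not called. The log2 of the summed signal of the list (6.55 to 6.89 in the RV, 6.75 to 7.06 in the LV and 6.63 to 7.04 in the Septum) was nearly that of Fabp4 alone (6.39 to 7.0 over all arrays), a gene that capillary endothelium also expresses, and does not show the other genes. The part of adipocyte content in the values of C4b and of the other members was not tested.

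The cardiomyocyte, endothelial, atrial, lymphocyte, granulocyte and blood lists had 0 genes called by limma in either RV comparison. At an unadjusted p below 0.05 they had 3 and 1 cardiomyocyte genes, all lower in the RV, against the LV and the Septum in that order. In the same order they had 2 and 2 endothelial genes, all higher in the RV, and 1 and 1 atrial gene, lower in the RV. The rest had 0. Of all genes, 22.8% and 16.3% passed that threshold in the same order. Of the 6 cardiomyocyte markers, 0 had a positive difference against the LV (median -0.17) and 3 against the Septum (median -0.08). The hepatocyte markers Apoa1 and Fgb were well above background on 0 arrays and Alb on 1, and of that list only Serpina1a was tested and not called.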

How the data were processed

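Total RNA of 4 RV, 3 LV and 3 Septum samples of C57BL/6N mice was labelled with Cy3 and hybridised to Agilent mouse arrays. The design text says that different individuals were used for each experiment, and groups and replicate numbers came from the sample titles. The members, gene lists and tests were chosen with earlier results of these data known.

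The authors' scanner files hold intensity per spot from Feature Extraction (version 11.5.1.1), background-subtracted and not scaled between arrays, and signals of RV replicate 1 carry fewer digits. A deposited table of log2 values, scaled to the 75th percentile, differed by less than 0.05 from the values used here once a constant per array was removed. Controls were dropped, as were 56 to 128 outlier spots an array, spots of a probe were averaged, and the log2 75th percentile of each array was subtracted. Probes were kept where all arrays of 1 or more regions were well above background (30240 of 56605, 53.42%). A RefSeq accession gave a symbol for 32994 probes (58.29%) through a table of GRCm38.p6, and the array files name an older build. A gene is its probe with the highest mean signal.

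The 3 regions were fitted with limma (3.58.1, in R 4.3.3) on all 10 arrays, with Benjamini-Hochberg adjustment over the tested probes. The script was tested on simulated data. The number of arrays limits the precision, and p-values measure the spread between these samples. Named genes are the 10 members, the tested or called genes of 3 pathway lists, and the 3 closest profiles of C1qa, C1s1, C2 and Serping1. Lists of 11 other cell types or tissues served as markers.

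Replicate numbers are shared by the regions. The deviations of the 9 same-number pairs from their region means correlated at 0.36 to 0.64, all above 0.1. The replicate number was therefore used as a block in an alternative fit. In 16 of 18 cases an array correlated best with the array of its own number in another region. Slide 2 held 1 LV and 1 Septum array, and arrays of different slides correlated negatively. Some of these cases were therefore settled by the slide alone. LV and Septum replicate 3 correlated more with RV replicate 4 (0.57 and 0.58) than with RV replicate 3 (0.43 and 0.44). All 9 pairs also share a slide, so that pairing by number is not established. The labels do not say what a number stands for. Other pairs on the same slide correlated at 0.09 to 0.58. Alternatives were quantile and median scaling, another percentile, normexp (offset 50) on the median signal because the files have no mean signal, the authors' table, other filters, slide and replicate blocks, each slide alone, each array left out, the mean over probes, and the study's test, a one-way analysis of variance followed by Tukey's correction.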

Additional observations from a re-analysis of the deposited data

How the results depend on the processing

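The 3 members called in the RV against the LV became 5 with normexp (4.88% of all genes called). They became 7 with the slide as a block, 8 with the replicate block and 6 by the unadjusted analysis of variance followed by Tukey's correction. When 1 array was left out, 2 to 5 were called (1.66% to 4.19%), with 5 without Septum replicate 3 (4.19%). On slide 1 alone 3 were called (3.33%), C2 and Serping1 as higher and Masp1 as lower in the RV. The 3 called against the Septum became 7 with the slide as a block, 6 with the replicate block and 5 by the unadjusted analysis of variance. They became 0 without a filter (0.336%), and 0 to 3 when 1 array was left out (0.526% to 2.42%). Without Septum replicate 2, 0 were called (0.526%), and without Septum replicate 3, 1 was called (0.792%). On slide 1 alone 2 were called (2.12%), C2 as higher and Masp1 as lower in the RV. The cause was not tested. The main differences, intervals and calls come from the fit without a slide or replicate term. The replicate block, used because arrays of the same number correlated, changed no call other than those given beside the results. The median member differences stayed between 0.36 and 0.51 against the LV and between 0.35 and 0.58 against the Septum under all settings.

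None of the values that changed sign was called. Against the LV, Masp1 was at 0.37 on slide 2 alone, and C1qb ranged from -0.014 to 0.44 when 1 array was left out. In the Septum minus LV comparison, C1s2 was at 0.0079 with quantile normalization, C1qa at -0.043 and C1ra at -0.034 with median scaling, and C1s1 at 0.0036 and C1s2 at 0.0048 with the percentile of probes above background on all arrays. C1s1 was at 0.025 and C1s2 at 0.048 on slide 1 alone, and C1qa at -0.018, C1ra at -0.0013 and Serping1 at -0.012 on slide 2 alone. When 1 array was left out, Septum minus LV ranged from -0.15 to 0.22 for C1qa, -0.28 to 0.23 for C1qb, -0.27 to 0.15 for C1qc, -0.028 to 0.13 for C1ra, -0.10 to 0.035 for C1s1, -0.11 to 0.041 for C1s2 and -0.023 to 0.24 for Serping1.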
